A study of Mus musculus with 12 samples.

Results

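The comparison described here set kidneys of mice with adenine-induced chronic kidney disease (CKD) that received colchicine against kidneys of mice with the same disease that received saline. It uses 8 of the 12 RNA-seq libraries of the series, 4 in each of these groups, and every gene in the count tables; the other 4 libraries, from control mice, enter as a reference level. All mice were C57BL/6, and the labels put all libraries in batch 1. The CKD mice ate a diet labelled 2% adenine and received saline by intraperitoneal injection. The colchicine mice received colchicine at 0.3 mg/kg/day by the same route, and the labels give their diets as 2%, 3%, 4% and 5% adenine for replicates 1, 2, 3 and 4. The diet of the colchicine group is therefore labelled differently from that of the CKD group in all but replicate 1, and a difference between the groups cannot be told apart from a difference in diet where it rests on replicates 2 to 4. Control mice received saline and no adenine. The labels call the libraries biological replicates but name no animals, so the p-values reflect only how far these libraries vary, part of which may be technical.

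Adenine in the diet is oxidised to an insoluble product that crystallises in the renal tubules, which injures the tubular epithelium, draws in immune cells and leaves fibrosis. Colchicine binds tubulin, the building block of microtubules, and stops microtubules from growing. It is used in gout and other inflammatory diseases, where reduced neutrophil movement and reduced activation of the NLRP3 inflammasome are among its described actions. Microtubules also form the mitotic spindle, carry vesicles and make up the core of cilia.

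Across the 17841 genes with enough counts to test, 2682 (15.0%) passed an adjusted p below 0.05 in edgeR's quasi-likelihood test between colchicine and CKD, 1212 higher (6.79%) and 1470 lower (8.24%). Most changes were small: 89.4% of the called genes differed by less than 2-fold, 139 genes were higher and 145 lower by at least 2-fold, and the median absolute log2 fold change of the called genes was 0.45. The libraries held 22200909 to 38253100 counts, and the 13 protein-coding mitochondrial transcripts took 16.5% to 17.0% of them in CKD and 14.3%, 15.8%, 18.5% and 21.3% in colchicine replicates 1 to 4. Kidney identity was plain in all 8 libraries (Umod, 607 CPM or more). The colchicine and CKD groups did not overlap for 3250 of the 17841 genes (18.2%). Among the called genes the share was 77.6%, so separation of the groups is usual for a called gene. The list counts below stand beside the 6.79% of all genes higher and the 8.24% lower.

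Colchicine replicate 1 stood apart from replicates 2 to 4 in how gene levels moved with transcript GC content, the cause of which was not tested. In replicates 2, 3 and 4 the level of a gene relative to the CKD mean moved with the GC content of its transcript: the median log2 difference was -0.24, -0.22 and -0.19 in the lowest of 5 equal bins of GC content and 0.27, 0.23 and 0.19 in the highest. In replicate 1 the same medians were 0.00 and 0.02, and the CKD libraries stayed within -0.03 and 0.03 in all 5 bins. The genes called higher had a median GC content of 55.1%, the genes called lower 46.5%, and all genes with a value 50%. With the GC trend of each library removed, 988 genes (6.05%) were higher and 1237 (7.58%) lower of 16321 with a GC value. In that fit 1741 of the 2561 called genes with a value remained called. Levels in replicates 2 to 4 also moved with transcript length. In the shortest of 5 equal bins of length the medians were -0.01, 0.16, 0.20 and 0.21 in replicates 1 to 4. In the longest they were 0.04, -0.08, -0.08 and -0.11. The GC adjustment alone does not remove a length trend. With GC and length adjusted 978 genes were higher and 1309 lower. Replicate 1 also lay inside the CKD range for 462 of the called genes, against 10, 30 and 90 for the other 3. Without it 2882 genes were higher and 3519 lower, and replicate 1 alone against the 4 CKD libraries, the only comparison at the same diet label, gave 532 higher (2.98%) and 660 lower (3.7%); that fit takes the lone library to vary as the other groups do. Of the 128 called genes whose values are given here, 121 of 127 with a GC value remained called with GC adjusted and 84 in replicate 1 alone. The number called also moved by more than 1.5 times with any other CKD or colchicine library left out, except for genes lower without colchicine replicate 4. Without CKD replicates 1 to 4 in turn 580, 662, 419 and 640 genes were higher and 846, 899, 573 and 878 lower, and without colchicine replicates 2 to 4 in turn 489, 629 and 724 were higher and 707, 756 and 1252 lower. Upper-quartile scaling turned the balance, with 1764 genes higher and 1185 lower. Fewer cells of a type and less RNA per cell cannot be told apart in bulk tissue.

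**Figure D1:**
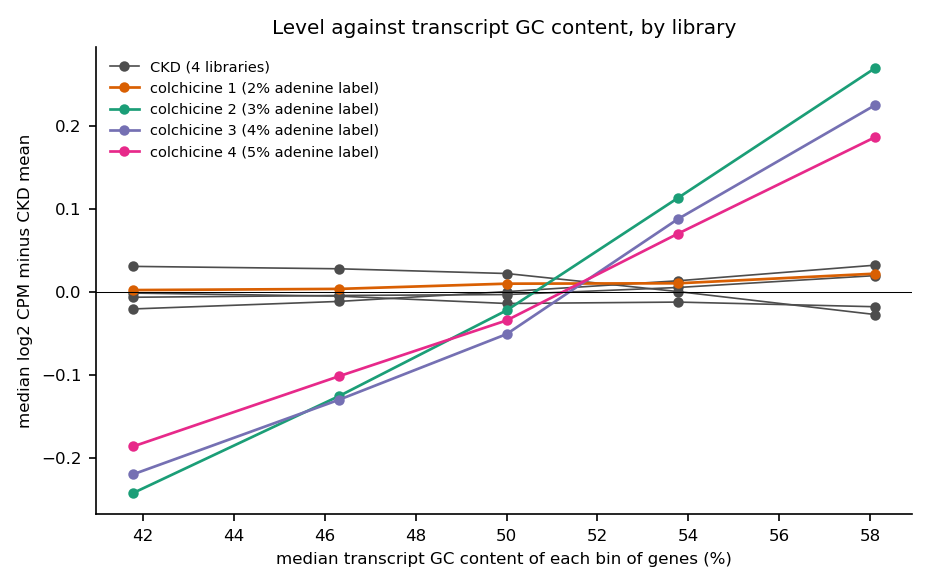
Median log2 CPM minus the CKD mean (vertical axis) in 5 equal bins of genes ordered by transcript GC content (horizontal axis, median GC in percent of each bin), for the 4 CKD libraries (grey) and the 4 colchicine libraries (coloured). Colchicine replicates 2 to 4 rise from -0.24, -0.22 and -0.19 to 0.27, 0.23 and 0.19, while replicate 1 stays between 0.00 and 0.02.

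Interferon-stimulated genes rose together with colchicine. Of 29 tested members of the list, 22 were higher and none lower, with a median log2 fold change of 0.75, against 6.79% of all genes higher and a median of 0.03. Type I interferons signal through a complex that includes STAT2 and IRF9, which binds the interferon-stimulated response element (ISRE) in the promoters of antiviral genes. A search on either strand for the core motif, GAAA then any 2 bases then GAAA (TTTC, any 2 bases, TTTC on the other strand), in the 300 bases from 250 before to 50 after the start of each gene, found it in 10 of the 20 listed genes present in the RefSeq promoter table (build GRCm38.p6). Among all tested genes in that table the share was 3.87% (520 of 13421). The listed genes were chosen as interferon-stimulated, so their share would be the same whatever the groups measured. It describes the list and says nothing about colchicine. The promoters of Isg15, Bst2 and Ifit1 are shown as examples among the genes whose values follow. Irf7 and Xaf1 had no match, and Oas1a, not shown, had one closer to the start, at 20 bases. Capitals mark the matches, which overlap in Isg15 and Bst2.
Isg15, GRCm38.p6 chr4:156200769-156201068, minus strand: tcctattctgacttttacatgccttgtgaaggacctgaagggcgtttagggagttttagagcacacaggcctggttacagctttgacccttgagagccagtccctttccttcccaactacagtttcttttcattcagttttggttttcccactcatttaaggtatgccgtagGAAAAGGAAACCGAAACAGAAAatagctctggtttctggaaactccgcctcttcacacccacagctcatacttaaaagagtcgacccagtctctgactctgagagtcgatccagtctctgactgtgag
Bst2, GRCm38.p6 chr8:71537423-71537722, minus strand: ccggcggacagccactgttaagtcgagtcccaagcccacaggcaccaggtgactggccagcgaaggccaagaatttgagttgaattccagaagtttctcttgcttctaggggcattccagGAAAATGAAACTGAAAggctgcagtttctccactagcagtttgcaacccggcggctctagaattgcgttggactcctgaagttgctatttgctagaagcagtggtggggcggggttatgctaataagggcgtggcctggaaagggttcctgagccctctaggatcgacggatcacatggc
Ifit1, GRCm38.p6 chr19:34640639-34640938, plus strand: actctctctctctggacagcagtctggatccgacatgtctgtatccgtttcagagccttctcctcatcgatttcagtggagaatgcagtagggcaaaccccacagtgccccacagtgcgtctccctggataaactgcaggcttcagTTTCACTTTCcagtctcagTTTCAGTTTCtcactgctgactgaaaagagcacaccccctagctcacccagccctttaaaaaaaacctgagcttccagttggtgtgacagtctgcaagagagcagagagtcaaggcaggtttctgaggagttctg
The first match starts 78 bases before the gene start in Isg15, 130 in Bst2 and 104 in Ifit1. A match describes the letters of the promoter and does not show that a factor binds there.

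Isg15, a ubiquitin-like protein that interferon induces, measured 8.62, 8.48, 7.86 and 9.93 CPM in the CKD libraries and 31.8, 24.0, 19.4 and 27.3 CPM in the colchicine libraries. All 4 colchicine libraries lay above all 4 CKD libraries (log2 fold change 1.55, SE 0.16, adjusted p = 0.000102). Bst2, which tethers budding virus to the cell surface, measured 16.3, 17.0, 13.9 and 15.7 CPM in the CKD libraries and 39.3, 33.5, 30.7 and 33.9 CPM in the colchicine libraries, again without overlap (log2 fold change 1.13, SE 0.11, adjusted p = 8.45e-05). Irf7, the transcription factor that amplifies interferon production, measured 26.3, 28.1, 23.9 and 26.2 CPM in the CKD libraries and 112, 55.1, 45.4 and 56.9 CPM in the colchicine libraries (log2 fold change 1.37, SE 0.25, adjusted p = 0.00631). Replicate 1 was the highest library for all 3 genes. Ifit1, which binds viral RNA lacking host cap marks, measured 18.1, 16.2, 16.9 and 21.4 CPM in the CKD libraries and 75.7, 34.5, 35.2 and 39.0 CPM in the colchicine libraries (log2 fold change 1.34, SE 0.25, adjusted p = 0.0067). Xaf1, a pro-apoptotic interferon target, measured 18.1, 17.9, 17.2 and 18.1 CPM in the CKD libraries and 36.3, 26.6, 27.0 and 26.6 CPM in the colchicine libraries (log2 fold change 0.71, SE 0.12, adjusted p = 0.00254). In control kidneys Isg15 averaged 4.18 ± 1.06 CPM (SD, n = 4), Bst2 8.07 ± 1.44 CPM (SD, n = 4) and Irf7 9.73 ± 2.10 CPM (SD, n = 4), below every CKD library. In the GC-adjusted fit 23 members were higher, in replicate 1 alone 26, and without replicate 1 22.

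Genes of antigen presentation on MHC class II moved the opposite way. The list of interferon gamma and MHC genes held 3 higher and 7 lower genes of 24, and the 7 lower ones were Cd74, H2-Aa, H2-Ab1, H2-Eb1, H2-DMa, H2-DMb1 and Ciita, which form, load or switch on class II, and the 3 higher were Gbp3, Psmb9 and Tap1. The other members had a median above 0, so the list's median was 0.30 while its lowest values were far below. Cd74, the invariant chain, measured 1014, 1228, 1206 and 1228 CPM in the CKD libraries and 445, 495, 619.7 and 723 CPM in the colchicine libraries. The groups did not overlap, and the colchicine libraries remained above the control mean of 228 ± 40.0 CPM (SD, n = 4) (log2 fold change -1.03, SE 0.15, adjusted p = 0.00129). H2-Aa and H2-Eb1, the alpha and beta chains of class II molecules, fell by 1.26 (SE 0.19, adjusted p = 0.00193) and 1.17 (SE 0.18, adjusted p = 0.00186) on the log2 scale. All 7 were also lower with GC adjusted and in replicate 1 alone, whereas Psmb9 and Tap1 were no longer called with GC adjusted, at 0.38 (adjusted p = 0.0927) and 0.28 (adjusted p = 0.136). For the interferon gamma and MHC list, leaving out 1 library at a time gave 0 to 5 higher and 4 to 7 lower, moving the higher count by over 1.5 times without any one CKD replicate, colchicine replicates 2 or 4 or any one control replicate, and the lower count without CKD replicates 2 or 3 or colchicine replicate 2. The interferon gamma and MHC list had 9 higher and 7 lower in replicate 1 alone. H2-DMa was not called without CKD replicates 2 or 3 or colchicine replicates 2 or 3 (adjusted p up to 0.0689). H2-DMb1 was not called without any one CKD replicate or colchicine replicates 2 or 3 (adjusted p up to 0.114). Ciita was not called without CKD replicates 1, 2 or 3 or colchicine replicate 2 (adjusted p up to 0.0641). Gbp3 was not called without any one CKD replicate, colchicine replicates 2 or 4 or control replicates 1, 3 or 4 (adjusted p up to 0.11). Psmb9 was not called without any one CKD replicate, colchicine replicates 2, 3 or 4 or control replicates 1, 3 or 4 (adjusted p up to 0.148). Tap1 was not called without CKD replicates 1, 3 or 4 or colchicine replicates 2, 3 or 4 (adjusted p up to 0.108).

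Dendritic cell markers had the lowest median among the immune lists. They fell in 8 of 12 tested cases and rose in 1 (median log2 fold change -0.93), with the same counts after GC adjustment and 4 lower in replicate 1 alone. Flt3, the receptor that maintains dendritic cells, measured 3.45, 4.52, 3.84 and 3.30 CPM in the CKD libraries and 1.25, 0.777, 1.51 and 1.18 CPM in the colchicine libraries. Its 2 groups were separate and the level stayed above the control mean of 0.558 ± 0.178 CPM (SD, n = 4) (log2 fold change -1.67, SE 0.23, adjusted p = 0.000979). Itgae, the integrin CD103 of some dendritic and T cells, followed (log2 fold change -1.49, SE 0.24, adjusted p = 0.0023). Fscn1, an actin-bundling protein of mature dendritic cells that other cells also make, was the member that rose (log2 fold change 0.60, SE 0.09, adjusted p = 0.00187).

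T and NK cell markers were lower in 5 of 18 and higher in none (median -0.55); in replicate 1 alone 1 was higher and 1 lower. For the T and NK cell list, leaving out 1 library at a time gave 0 higher and 3 to 8 lower, moving the lower count by over 1.5 times without CKD replicates 1 or 2 or colchicine replicates 1, 2 or 3. Klrb1b, an NK receptor with near-identical relatives between which reads may be split, measured 3.24, 2.89, 3.99 and 4.82 CPM in the CKD libraries and 1.47, 0.777, 1.15 and 1.01 CPM in the colchicine libraries (log2 fold change -1.76, SE 0.25, adjusted p = 0.00114). Il7r, the interleukin 7 receptor of resting T cells, measured 16.3, 22.4, 19.7 and 15.3 CPM in the CKD libraries and 11.3, 10.03, 9.73 and 8.80 CPM in the colchicine libraries (log2 fold change -0.89, SE 0.14, adjusted p = 0.00247). Cd4 showed a log2 fold change of -0.75 (SE 0.16, adjusted p = 0.00984). Both stayed apart from CKD in all 4 libraries. Also called were Cd3g and Foxp3 (lower). Macrophage and monocyte markers were lower in 7 of 22 (median -0.29). Csf1r, the receptor for the main macrophage growth factor, measured 141, 136, 148 and 139.8 CPM in the CKD libraries and 109.9, 116, 83.6 and 87.6 CPM in the colchicine libraries (log2 fold change -0.51, SE 0.09, adjusted p = 0.00486). Ccr2, the receptor that brings monocytes into tissue, showed a log2 fold change of -0.64 (SE 0.15, adjusted p = 0.016). Ms4a7 showed a log2 fold change of -0.63 (SE 0.14, adjusted p = 0.0117) and -0.46 (adjusted p = 0.064) after GC adjustment. The summed level of the macrophage list was 5661 to 6055 CPM in CKD and 4116, 6089.8, 4136 and 3693 CPM in colchicine replicates 1 to 4, so replicate 2 was not below CKD in the sum. For the macrophage and monocyte list, leaving out 1 library at a time gave 0 higher and 3 to 9 lower, moving the lower count by over 1.5 times without CKD replicates 3 or 4 or colchicine replicates 3 or 4. The macrophage and monocyte list had 1 higher and 7 lower in replicate 1 alone. Ccr2 was not called without colchicine replicate 2 (adjusted p up to 0.0553).

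**Figure D2:**
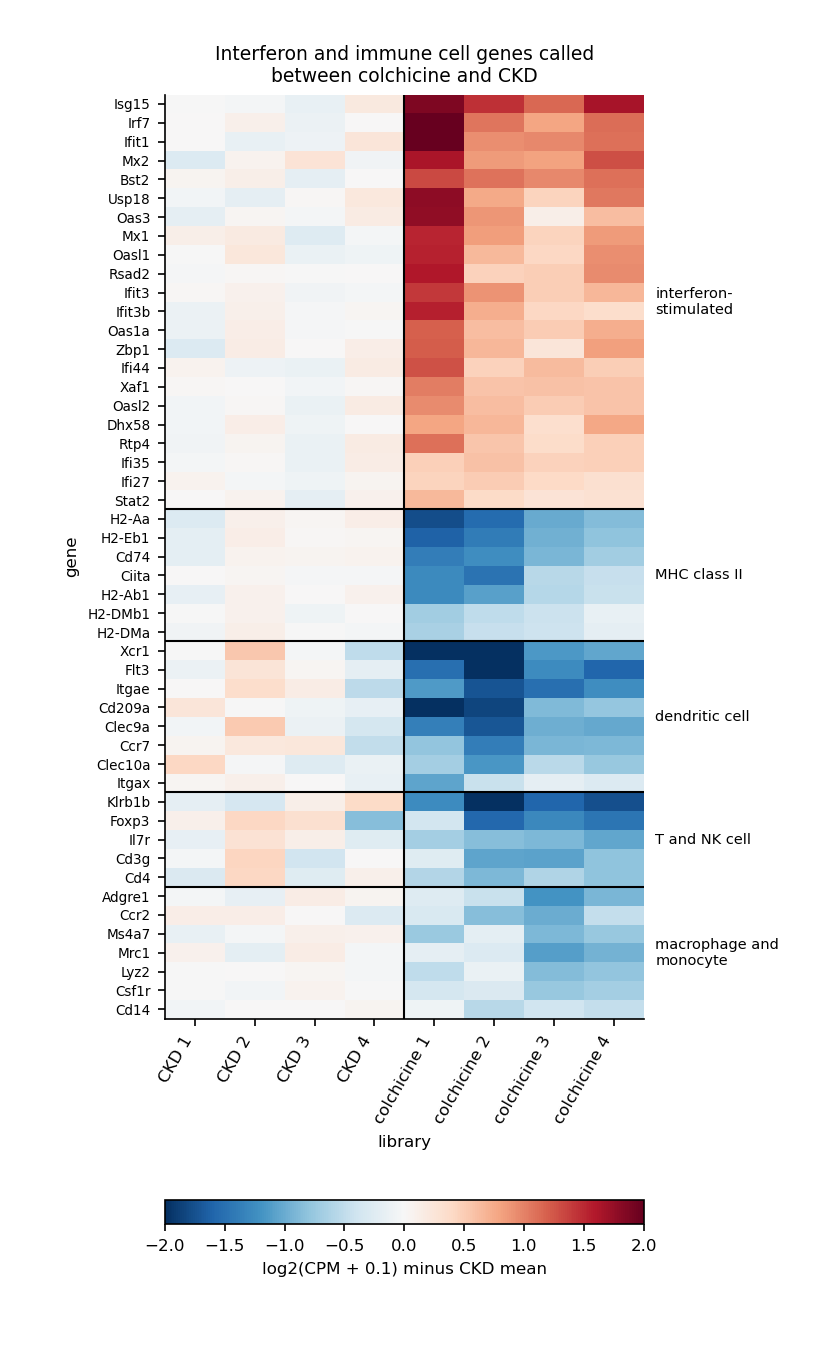
Level of each called interferon-stimulated, MHC class II, dendritic, T and NK, and macrophage gene (rows) in the 8 libraries (columns), as log2(CPM + 0.1) minus the mean of the 4 CKD libraries, with colours limited to between -2 and 2. The interferon genes are above 0 in all 4 colchicine libraries and most are strongest in replicate 1, and the MHC class II and dendritic genes are below 0 in all 4; Fscn1, which rose, is not drawn.

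Genes of the inflammasome, often named among the actions of colchicine, mostly did not pass the test. Of 21 tested, 1 was higher and 2 lower (median -0.29), a share near the 15.0% of all genes. However, 9 of the 21 had an unadjusted p below 0.05 in edgeR, as did 5881 of all 17841 genes. DESeq2 called 7 of the 21, and 14 estimates were below 0 and 7 above. Nlrp3, the sensor, measured 4.50, 6.41, 5.63 and 4.91 CPM in the CKD libraries and 6.74, 4.52, 4.35 and 4.07 CPM in the colchicine libraries, with overlapping groups (log2 fold change -0.12, SE 0.20, adjusted p = 0.683). Il1b, the cytokine it releases, measured 13.0, 30.4, 27.3 and 27.5 CPM in the CKD libraries and 21.3, 13.7, 16.5 and 18.9 CPM in the colchicine libraries (log2 fold change -0.49, SE 0.23, adjusted p = 0.164); CKD replicate 1 was the lowest CKD library, and without it the adjusted p was 0.0226. Il18 showed a log2 fold change of -0.25 (SE 0.19, adjusted p = 0.359) and Casp1, the protease that cuts both, a log2 fold change of -0.27 (SE 0.12, adjusted p = 0.137). The members called were Nlrc4, another sensor (log2 fold change -0.93, SE 0.17, adjusted p = 0.00486), Il1rn, the natural antagonist of the interleukin 1 receptor (log2 fold change -0.54, SE 0.11, adjusted p = 0.00676), and Casp4, the sensor of intracellular lipopolysaccharide, which rose (log2 fold change 0.37, SE 0.08, adjusted p = 0.0101). For the inflammasome and interleukin 1 list, leaving out 1 library at a time gave 1 to 2 higher and 2 to 4 lower, moving the higher count by over 1.5 times without colchicine replicate 1, and the lower count without colchicine replicate 1 or control replicate 4. The inflammasome and interleukin 1 list had 2 higher and 2 lower with GC adjusted and 0 higher and 1 lower in replicate 1 alone.

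Chemokine genes were higher in 0 and lower in 4 of 23. Cxcl13, which attracts B cells, measured 6.30, 4.17, 4.64 and 6.78 CPM in the CKD libraries and 1.60, 1.46, 1.83 and 2.09 CPM in the colchicine libraries and did not overlap (log2 fold change -1.65, SE 0.20, adjusted p = 0.00029). Ccl3 showed a log2 fold change of -0.87 (SE 0.23, adjusted p = 0.0223) and Cxcl16 a log2 fold change of -0.27 (SE 0.07, adjusted p = 0.022). Also called was Cxcl2 (lower). For the chemokine list, leaving out 1 library at a time gave 0 to 1 higher and 1 to 9 lower, moving the higher count by over 1.5 times without colchicine replicates 1 or 3, and the lower count without CKD replicates 2 or 3 or colchicine replicates 1 or 2. The chemokine list had 1 higher and 4 lower with GC adjusted and 4 higher and 1 lower in replicate 1 alone. Ccl3 was not called without CKD replicates 2 or 3 or colchicine replicate 2 (adjusted p up to 0.0686). Cxcl16 was not called without CKD replicates 1 or 2 or colchicine replicates 2 or 3 (adjusted p up to 0.0678). Ccl2, the main ligand of Ccr2, measured 15.6, 16.2, 18.8 and 18.3 CPM in the CKD libraries and 25.7, 17.9, 10.8 and 18.6 CPM in the colchicine libraries, spread on both sides of CKD (log2 fold change 0.08, SE 0.19, adjusted p = 0.793), and was higher in replicate 1 alone (log2 fold change 0.57, adjusted p = 0.0381). Tnf showed a log2 fold change of -0.09 (SE 0.18, adjusted p = 0.749). Neutrophil markers were higher in 1 and lower in 1 of 10, shares near the 6.79% and 8.24% of all genes. The one lower was Csf3r, the receptor for granulocyte growth factor (log2 fold change -0.60, SE 0.16, adjusted p = 0.0284), and the one higher was Retnlg (log2 fold change 1.37, SE 0.40, adjusted p = 0.037), at 6.41, 2.71, 1.67 and 2.05 CPM against 0.774, 1.99, 0.923 and 1.29 CPM in CKD. For the neutrophil list, leaving out 1 library at a time gave 0 to 2 higher and 0 to 3 lower, moving the higher count by over 1.5 times without CKD replicates 1, 3 or 4, colchicine replicates 1 or 2 or control replicates 1 or 3, and the lower count without CKD replicates 1, 2 or 3 or any one colchicine replicate. The neutrophil list had 4 higher and 0 lower in replicate 1 alone. Csf3r was not called without CKD replicates 1, 2 or 3 or colchicine replicates 2, 3 or 4 (adjusted p up to 0.0861). Retnlg was not called without CKD replicates 1, 3 or 4, colchicine replicates 1 or 2 or control replicate 3 (adjusted p up to 0.115).

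Complement and acute phase genes, which rise in the injured kidney, fell in part. Complement members were lower in 4 of 21 and higher in 0. C3, the central component, measured 1394, 1288, 1423 and 1416 CPM in the CKD libraries and 789, 601, 909 and 999.5 CPM in the colchicine libraries (log2 fold change -0.74, SE 0.15, adjusted p = 0.00643), far above the control mean of 19.2 ± 3.96 CPM (SD, n = 4). The groups did not overlap. Also called were Cfb and Cfi (lower). For the complement list, leaving out 1 library at a time gave 0 higher and 2 to 6 lower, moving the lower count by over 1.5 times without any one CKD replicate or colchicine replicates 2 or 3. The complement list had 1 higher and 2 lower in replicate 1 alone. Acute phase members were lower in 4 of 15 and higher in 1. Fga, the fibrinogen alpha chain, measured 219, 203, 309 and 243 CPM in the CKD libraries and 83.5, 50.2, 69.2 and 147 CPM in the colchicine libraries (log2 fold change -1.48, SE 0.28, adjusted p = 0.00866). Saa3, a serum amyloid made by tissue macrophages and epithelium, rose (log2 fold change 1.77, SE 0.26, adjusted p = 0.00135) while Saa1 fell (log2 fold change -1.61, SE 0.41, adjusted p = 0.0196) at levels near 1 CPM; the Saa genes resemble each other, and reads may be split between them. Also called were Fgb and Fgg (lower). For the acute phase list, leaving out 1 library at a time gave 1 higher and 1 to 4 lower, moving the lower count by over 1.5 times without CKD replicates 1, 3 or 4 or colchicine replicates 2 or 3. Saa1 was not called without CKD replicates 2 or 3 or colchicine replicate 4 (adjusted p up to 0.0601).

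Several genes named for the size of their fall encode secreted liver-type proteins or enzymes of drug metabolism, a grouping made after their values were seen. Serpina1a, Serpina1b and Serpina1d encode alpha-1-antitrypsins, a family of protease inhibitors, and are near-identical copies whose reads Salmon had to divide. Serpina1d measured 27.2, 32.0, 32.2 and 22.1 CPM in the CKD libraries and 4.56, 4.99, 6.18 and 4.42 CPM in the colchicine libraries and had the smallest p of all genes (log2 fold change -2.48, SE 0.13, adjusted p = 1.83e-07). Serpina1a measured 86.0, 113, 123 and 105 CPM in the CKD libraries and 30.7, 26.5, 28.4 and 26.1 CPM in the colchicine libraries (log2 fold change -1.93, SE 0.15, adjusted p = 2.61e-05) and Serpina1b 26.2, 41.2, 32.7 and 35.2 CPM in the CKD libraries and 9.51, 7.32, 9.75 and 5.39 CPM in the colchicine libraries (log2 fold change -2.07, SE 0.18, adjusted p = 4.05e-05). All 3 were separate from CKD in every library, and their CKD-versus-control log2 differences were -3.39, 0.37 and 0.37 for Serpina1d, Serpina1a and Serpina1b. Gc, the vitamin D binding protein, measured 171, 148, 178 and 164 CPM in the CKD libraries and 42.9, 39.7, 47.3 and 76.5 CPM in the colchicine libraries (log2 fold change -1.68, SE 0.17, adjusted p = 0.0001), while controls averaged 19.3 ± 1.53 CPM (SD, n = 4). Replicate 4 was the highest colchicine library for Gc. Ugt1a10, a glucuronosyltransferase whose locus shares exons with its relatives, showed a log2 fold change of -2.71 (SE 0.35, adjusted p = 0.00119), and the cytochromes Cyp2a4 and Cyp2d9 and the carboxylesterase Ces1f, also members of families with close copies, showed a log2 fold change of -1.76 (SE 0.16, adjusted p = 4.34e-05), a log2 fold change of -1.53 (SE 0.18, adjusted p = 0.000356) and a log2 fold change of -1.51 (SE 0.17, adjusted p = 0.000221). Ceacam2, an adhesion molecule with a close relative, fell from 1.92 ± 0.613 CPM to 0.159 ± 0.0562 CPM (SD, n = 4 each) (log2 fold change -3.51, SE 0.29, adjusted p = 2.61e-05). Hpgd, which breaks down prostaglandin E2, measured 22.3, 18.0, 18.1 and 21.4 CPM in the CKD libraries and 9.45, 7.28, 9.04 and 8.90 CPM in the colchicine libraries (log2 fold change -1.20, SE 0.11, adjusted p = 4.05e-05). Selenop, a selenium carrier, measured 741, 679, 765 and 759.6 CPM in the CKD libraries and 390.4, 451, 399 and 409.7 CPM in the colchicine libraries (log2 fold change -0.84, SE 0.08, adjusted p = 5.37e-05). Gpm6a, a membrane glycoprotein, showed a log2 fold change of -1.16 (SE 0.10, adjusted p = 4.05e-05). Each of these genes was also lower in replicate 1 alone and after GC adjustment.

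Proximal tubule markers, already low in CKD, were lower still with colchicine. Of 28, 17 were lower and none higher, with a median log2 fold change of -0.85; between CKD and control 27 were lower (median -3.34), where 33.4% of all genes were lower. The proximal tubule reclaims most filtered glucose, amino acids and phosphate and lives on fatty acid oxidation. Hnf4a, a master regulator of this segment, measured 116, 123, 127 and 106 CPM in the CKD libraries and 73.3, 42.4, 56.9 and 79.5 CPM in the colchicine libraries (log2 fold change -0.90, SE 0.15, adjusted p = 0.00289). Slc16a9, a carnitine transporter, measured 25.2, 26.0, 29.0 and 26.5 CPM in the CKD libraries and 11.9, 8.59, 11.4 and 14.9 CPM in the colchicine libraries (log2 fold change -1.20, SE 0.13, adjusted p = 0.000109). G6pc, the last step of gluconeogenesis, measured 63.9, 50.2, 80.0 and 71.9 CPM in the CKD libraries and 17.2, 13.4, 22.3 and 36.7 CPM in the colchicine libraries (log2 fold change -1.58, SE 0.27, adjusted p = 0.00573). None of the 3 overlapped between groups, and replicate 4 was the highest colchicine library for each. Slc34a1, the main phosphate transporter, measured 271, 258, 346 and 297 CPM in the CKD libraries and 176, 189, 205 and 335 CPM in the colchicine libraries, so that replicate 4 lay within the CKD values and the gene was not called (log2 fold change -0.37, SE 0.17, adjusted p = 0.136); without replicate 4 its adjusted p was 0.00205. The count was 16 lower with GC adjusted, and 16 lower and 1 higher in replicate 1 alone. The list's summed level was 3576 to 4585 CPM in CKD and 2327, 1555, 2106 and 3021 CPM in colchicine replicates 1 to 4. For the proximal tubule list, leaving out 1 library at a time gave 0 higher and 9 to 24 lower, moving the lower count by over 1.5 times without CKD replicates 1, 3 or 4 or colchicine replicate 3.

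Genes of fatty acid oxidation fell with them, 17 lower and none higher of 28 (median -0.43; 18 lower with GC adjusted). Ppara, the nuclear receptor that drives this pathway, measured 37.9, 33.0, 42.0 and 34.2 CPM in the CKD libraries and 15.7, 13.3, 15.4 and 18.1 CPM in the colchicine libraries (log2 fold change -1.24, SE 0.12, adjusted p = 8.45e-05). The controls averaged 65.6 ± 11.0 CPM (SD, n = 4), so the order was control, CKD, colchicine. Acot12, an acetyl-CoA thioesterase, showed a log2 fold change of -1.34 (SE 0.16, adjusted p = 0.000382). For the fatty acid oxidation list, leaving out 1 library at a time gave 0 to 2 higher and 12 to 19 lower, moving the higher count by over 1.5 times without colchicine replicate 1. The nuclear genes of oxidative phosphorylation were lower in 9 of 26, by less (median -0.17): the complex I subunit Ndufs1 showed a log2 fold change of -0.54 (SE 0.10, adjusted p = 0.0037), the complex II subunit Sdha a log2 fold change of -0.47 (SE 0.09, adjusted p = 0.00631) and the ATP synthase subunit Atp5b a log2 fold change of -0.43 (SE 0.09, adjusted p = 0.00767). For the nuclear oxidative phosphorylation list, leaving out 1 library at a time gave 0 to 1 higher and 6 to 15 lower, moving the higher count by over 1.5 times without colchicine replicate 1, and the lower count without colchicine replicate 4. The nuclear oxidative phosphorylation list had 0 higher and 3 lower in replicate 1 alone. Of the 13 mitochondrially encoded transcripts only ND6 was called, higher (log2 fold change 0.77, SE 0.22, adjusted p = 0.0377), at 42.5, 97.6, 77.2 and 93.2 CPM in replicates 1 to 4 against 44.7 to 47.7 in CKD. For the mitochondrially encoded list, leaving out 1 library at a time gave 0 to 4 higher and 0 to 3 lower, moving the higher count by over 1.5 times without any one CKD replicate or any one colchicine replicate, and the lower count without colchicine replicate 4. The mitochondrially encoded list had 0 higher and 0 lower with GC adjusted and 0 higher and 0 lower in replicate 1 alone. ND6 was not called without any one CKD replicate or colchicine replicates 2, 3 or 4 (adjusted p up to 0.112).

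Targets of NRF2, the factor that induces antioxidant genes, were lower in 7 of 16 and higher in none (median -0.43). Nqo1, a quinone reductase, measured 17.1, 19.6, 19.4 and 17.5 CPM in the CKD libraries and 9.21, 7.77, 10.8 and 11.7 CPM in the colchicine libraries (log2 fold change -0.90, SE 0.12, adjusted p = 0.000793). Cat, catalase, measured 261, 246, 300.1 and 279 CPM in the CKD libraries and 141, 120.1, 165 and 196 CPM in the colchicine libraries (log2 fold change -0.81, SE 0.12, adjusted p = 0.00173). Both were separate from CKD in all 4 libraries, and Me1, malic enzyme, was too (log2 fold change -0.61, SE 0.11, adjusted p = 0.00414). In cholesterol synthesis 3 of 22 were lower, led by Hmgcs1 (log2 fold change -0.60, SE 0.10, adjusted p = 0.00211) and Nsdhl (log2 fold change -0.55, SE 0.10, adjusted p = 0.00411). Also called was Sc5d (lower). The share called in this list was near the 15.0% of all genes. For the cholesterol synthesis list, leaving out 1 library at a time gave 0 to 1 higher and 2 to 7 lower, moving the higher count by over 1.5 times without colchicine replicate 1, and the lower count without colchicine replicate 4. In glycolysis and gluconeogenesis 2 were higher and 5 lower of 24. The higher pair were Slc16a3, the lactate exporter, at 5.91, 5.77, 5.72 and 4.53 CPM in the CKD libraries and 15.4, 12.4, 10.1 and 10.5 CPM in the colchicine libraries (log2 fold change 1.14, SE 0.15, adjusted p = 0.000761), and Pfkl, a phosphofructokinase (log2 fold change 0.51, SE 0.10, adjusted p = 0.00544). Also called were Fbp1, G6pc, Pcx and Slc2a2 (lower). For the glycolysis and gluconeogenesis list, leaving out 1 library at a time gave 2 to 3 higher and 2 to 7 lower, moving the lower count by over 1.5 times without any one CKD replicate or colchicine replicates 2 or 3. The glycolysis and gluconeogenesis list had 4 higher and 6 lower in replicate 1 alone.

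The loop of Henle, which builds the salt gradient of the medulla, had 7 of 12 markers lower and none higher (median -0.43). Slc12a1, the sodium-potassium-chloride transporter blocked by furosemide, measured 266, 339, 270.5 and 243 CPM in the CKD libraries and 107, 142, 181 and 120.3 CPM in the colchicine libraries (log2 fold change -1.02, SE 0.15, adjusted p = 0.0015). Kcnj1, the potassium channel that recycles potassium to it, measured 63.9, 74.7, 68.6 and 65.4 CPM in the CKD libraries and 38.4, 39.2, 42.0 and 44.2 CPM in the colchicine libraries (log2 fold change -0.73, SE 0.09, adjusted p = 0.000295). Umod, uromodulin, measured 1153, 1229.7, 1263 and 1029 CPM in the CKD libraries and 652, 1032, 674 and 607 CPM in the colchicine libraries (log2 fold change -0.66, SE 0.15, adjusted p = 0.0106). Slc12a1 and Kcnj1 did not overlap between groups, whereas replicate 2 lay within the CKD values of Umod. Atp1b1, the beta subunit of the sodium pump that powers transport in every segment, fell (log2 fold change -0.74, SE 0.11, adjusted p = 0.00122). For the loop of Henle list, leaving out 1 library at a time gave 0 higher and 4 to 8 lower, moving the lower count by over 1.5 times without CKD replicate 3.

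In the collecting duct, water channels fell while most other principal cell markers did not pass the test. Principal cell markers were higher in 1 and lower in 2 of 13, where 6.79% of all genes were higher and 8.24% lower. Aqp2, the vasopressin-regulated channel, measured 36.1, 31.5, 30.7 and 45.5 CPM in the CKD libraries and 15.6, 17.8, 13.8 and 15.8 CPM in the colchicine libraries, against a control mean of 221 ± 41.3 CPM (SD, n = 4) (log2 fold change -1.19, SE 0.15, adjusted p = 0.000437). Aqp3, the channel of the opposite membrane, measured 11.4, 11.9, 12.8 and 13.2 CPM in the CKD libraries and 3.91, 3.89, 3.67 and 5.64 CPM in the colchicine libraries (log2 fold change -1.54, SE 0.13, adjusted p = 2.65e-05). The groups of both genes were apart in all libraries. Gata3, a transcription factor of the collecting duct, was the member that rose (log2 fold change 0.44, SE 0.11, adjusted p = 0.022). For the collecting duct principal list, leaving out 1 library at a time gave 0 to 3 higher and 2 to 3 lower, moving the higher count by over 1.5 times without CKD replicates 2 or 3 or colchicine replicates 1 or 3. The collecting duct principal list had 0 higher and 5 lower in replicate 1 alone. Intercalated cell markers were lower in 3 of 12, with Car2, carbonic anhydrase 2, at a log2 fold change of -0.64 (SE 0.15, adjusted p = 0.0145). Also called were Atp6v1b1 and Foxi1 (lower). For the collecting duct intercalated list, leaving out 1 library at a time gave 0 higher and 0 to 3 lower, moving the lower count by over 1.5 times without CKD replicates 2 or 3 or colchicine replicates 2 or 3. The collecting duct intercalated list had 1 higher and 4 lower in replicate 1 alone. Distal convoluted tubule markers were higher in 1 and lower in 2 of 12; Trpm6, the magnesium channel, rose (log2 fold change 0.47, SE 0.10, adjusted p = 0.00762). Also called were Stk39 and Trpm7 (lower). For the distal convoluted tubule list, leaving out 1 library at a time gave 1 higher and 0 to 4 lower, moving the lower count by over 1.5 times without any one CKD replicate, colchicine replicates 2, 3 or 4 or control replicates 1 or 3. The distal convoluted tubule list had 2 higher and 3 lower in replicate 1 alone. Gata3 was not called without CKD replicates 2 or 3 or colchicine replicate 3 (adjusted p up to 0.0789). Car2 was not called without CKD replicate 3 (adjusted p up to 0.0511).

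**Figure D3:**
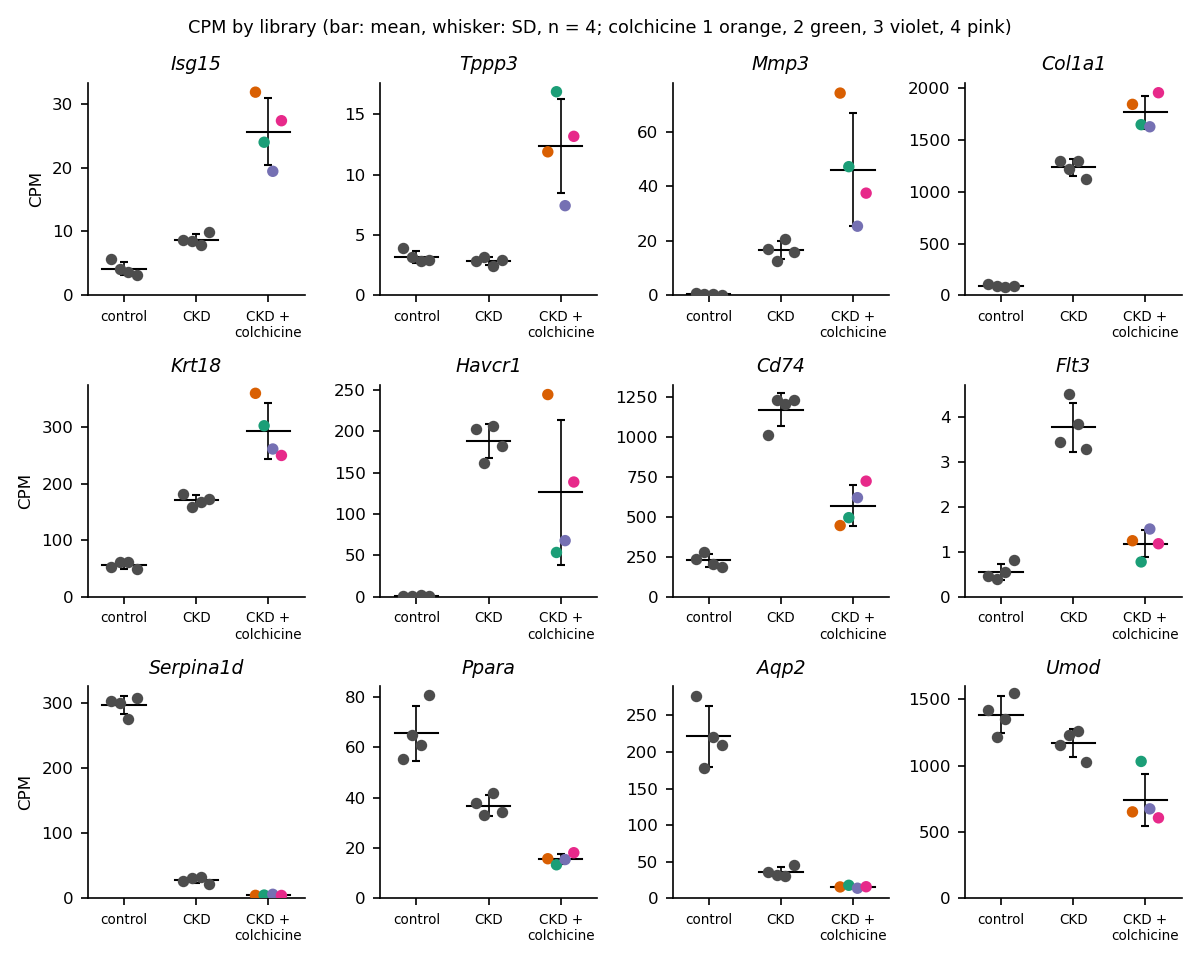
CPM of 12 genes in each library of the control, CKD and colchicine groups (linear axes from 0), with the mean and SD of 4 libraries. Isg15, Tppp3, Mmp3, Col1a1 and Krt18 are higher in every colchicine library than in every CKD library, Cd74, Flt3, Serpina1d, Ppara and Aqp2 are lower in every one, and Havcr1 and Umod overlap.

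Fibroblast and collagen genes were higher in 8 of 21 and lower in none (median 0.29), and 3 remained higher with GC adjusted. For the fibroblast and collagen list, leaving out 1 library at a time gave 4 to 9 higher and 0 to 2 lower, moving the higher count by over 1.5 times without any one CKD replicate or colchicine replicates 2 or 4, and the lower count without colchicine replicate 1. The fibroblast and collagen list had 6 higher and 1 lower in replicate 1 alone. Col1a1, the main fibrillar collagen chain, measured 1295, 1224, 1298 and 1125 CPM in the CKD libraries and 1845, 1649, 1629 and 1958 CPM in the colchicine libraries (log2 fold change 0.52, SE 0.10, adjusted p = 0.00643), against a control mean of 91.9 ± 13.8 CPM (SD, n = 4), and with GC adjusted showed 0.35 (adjusted p = 0.0493). Col6a2 and Col6a3, chains of collagen VI, showed a log2 fold change of 0.46 (SE 0.09, adjusted p = 0.00543) and a log2 fold change of 0.55 (SE 0.11, adjusted p = 0.00762). Col1a2 showed a log2 fold change of 0.32 (SE 0.10, adjusted p = 0.042) and 0.22 (adjusted p = 0.172) with GC adjusted. All 4 collagen genes were higher in every colchicine library than in any CKD library. Col1a2 was not called without any one CKD replicate, colchicine replicates 2 or 4 or control replicate 3 (adjusted p up to 0.114).

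Matrix, crosslinking and protease genes were higher in 7 and lower in 2 of 27. Of the genes given below, Spp1 is counted with injured tubules and not in this list, and not every gene that rose is a member. The 2 lower members are not named. Mmp3, stromelysin 1, measured 16.9, 12.7, 20.8 and 15.9 CPM in the CKD libraries and 74.2, 47.2, 25.4 and 37.5 CPM in the colchicine libraries (log2 fold change 1.47, SE 0.29, adjusted p = 0.00884). Mmp14, a membrane-bound collagenase, measured 304, 299, 291 and 281 CPM in the CKD libraries and 364, 526, 442 and 444 CPM in the colchicine libraries (log2 fold change 0.60, SE 0.10, adjusted p = 0.00286), and Sparc, a collagen-binding protein, 980.2, 958, 1054 and 881 CPM in the CKD libraries and 1385, 1267, 1168 and 1380.0 CPM in the colchicine libraries (log2 fold change 0.42, SE 0.08, adjusted p = 0.00634). Thbs3, a thrombospondin, measured 10.5, 8.94, 10.4 and 9.43 CPM in the CKD libraries and 29.3, 26.9, 19.0 and 22.3 CPM in the colchicine libraries (log2 fold change 1.31, SE 0.13, adjusted p = 7.26e-05), and Tnxb, a tenascin, 8.83, 8.26, 7.89 and 7.42 CPM in the CKD libraries and 21.1, 31.0, 17.1 and 16.4 CPM in the colchicine libraries (log2 fold change 1.40, SE 0.18, adjusted p = 0.000507). None of the 5 overlapped between groups. Spp1, osteopontin, a secreted glycoprotein of injured tubules, fell from 15063 ± 1289.8 CPM to 10013 ± 2522 CPM (SD, n = 4 each) (log2 fold change -0.59, SE 0.15, adjusted p = 0.0206), and replicate 1 was nearest to CKD. For the matrix, crosslinking and protease list, leaving out 1 library at a time gave 3 to 9 higher and 0 to 3 lower, moving the higher count by over 1.5 times without CKD replicates 2, 3 or 4, and the lower count without CKD replicates 1, 2 or 3 or colchicine replicate 2. The matrix, crosslinking and protease list had 5 higher and 0 lower with GC adjusted. Spp1 was not called without CKD replicate 3 or colchicine replicate 3 (adjusted p up to 0.0757).

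Myofibroblast and smooth muscle genes were higher in 7 of 13, with all 13 estimates above 0; 5 were higher with GC adjusted and 2 in replicate 1 alone. For the myofibroblast and smooth muscle list, leaving out 1 library at a time gave 2 to 8 higher and 0 lower, moving the higher count by over 1.5 times without any one CKD replicate or colchicine replicates 2, 3 or 4. Vim, the intermediate filament of mesenchymal cells, measured 542, 509, 505 and 504 CPM in the CKD libraries and 704, 740.3, 579 and 667 CPM in the colchicine libraries (log2 fold change 0.39, SE 0.08, adjusted p = 0.00723). Tpm2, a muscle tropomyosin, measured 94.2, 87.7, 97.8 and 95.2 CPM in the CKD libraries and 101, 155, 143 and 157 CPM in the colchicine libraries (log2 fold change 0.57, SE 0.12, adjusted p = 0.00892), and Acta2, smooth muscle actin, 248, 224, 271 and 231 CPM in the CKD libraries and 275, 343, 285 and 372 CPM in the colchicine libraries (log2 fold change 0.39, SE 0.11, adjusted p = 0.0281). For Tpm2 and Acta2 replicate 1 was the colchicine library nearest to CKD. The cytoskeletal genes Actb and Tmsb10, which encode beta-actin and an actin-binding peptide, also rose, Actb with a log2 fold change of 0.35 (SE 0.08, adjusted p = 0.00953) and Tmsb10 with a log2 fold change of 0.49 (SE 0.09, adjusted p = 0.00515). In TGF-beta signalling 2 of 21 were higher and none lower; Tgfb1, the main profibrotic ligand, measured 93.2, 90.7, 92.1 and 85.9 CPM in the CKD libraries and 96.2, 100.1, 83.6 and 91.0 CPM in the colchicine libraries (log2 fold change 0.04, SE 0.07, adjusted p = 0.742). With GC adjusted its log2 fold change was -0.21 (adjusted p = 0.123), and with replicate 1 also left out it was called lower, at -0.32 (adjusted p = 0.00178). Tgfb3 showed a log2 fold change of 0.39 (SE 0.11, adjusted p = 0.0295). Also called was Tgfb2 (higher). The share higher in this list was near the 6.79% of all genes. For the TGF-beta signalling list, leaving out 1 library at a time gave 0 to 2 higher and 0 to 6 lower, moving the higher count by over 1.5 times without any one CKD replicate, colchicine replicates 2 or 3 or control replicates 1, 3 or 4, and the lower count without colchicine replicate 1. The TGF-beta signalling list had 4 higher and 1 lower in replicate 1 alone. Acta2 was not called without CKD replicates 1, 2 or 4 or colchicine replicates 2 or 4 (adjusted p up to 0.0869). Tgfb3 was not called without any one CKD replicate or colchicine replicate 2 (adjusted p up to 0.0909).

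Endothelial markers were higher in 4 of 16 and in 6 with GC adjusted. Cldn5, a tight junction protein of endothelium, measured 5.28, 5.73, 5.77 and 5.32 CPM in the CKD libraries and 7.99, 11.1, 10.1 and 10.6 CPM in the colchicine libraries (log2 fold change 0.85, SE 0.14, adjusted p = 0.00271). Tie1, an endothelial receptor kinase, showed a log2 fold change of 0.41 (SE 0.07, adjusted p = 0.00414). Also called were Esam and Flt1 (higher). For the endothelial list, leaving out 1 library at a time gave 4 to 7 higher and 0 to 2 lower, moving both counts by over 1.5 times without colchicine replicate 1. Apln, a peptide of sprouting endothelium, measured 5.35, 4.88, 5.66 and 4.12 CPM in the CKD libraries and 23.0, 9.23, 7.37 and 11.7 CPM in the colchicine libraries, highest in replicate 1 (log2 fold change 1.36, SE 0.28, adjusted p = 0.00953). Podocyte markers were higher in 3 and lower in 1 of 14, with Wt1, a podocyte transcription factor, at a log2 fold change of 0.54 (SE 0.12, adjusted p = 0.00977). Also called were Cdkn1c and Nes (higher) and Col4a3 (lower). For the podocyte list, leaving out 1 library at a time gave 2 to 7 higher and 0 to 1 lower, moving the higher count by over 1.5 times without colchicine replicate 1, and the lower count without CKD replicates 1 or 3. The podocyte list had 0 higher and 0 lower in replicate 1 alone.

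Of 26 genes of injured and incompletely repaired tubules, 5 were higher and 2 lower, the latter a share near the 8.24% of all genes. Krt18, a simple epithelial keratin, measured 182, 158, 168 and 173 CPM in the CKD libraries and 359, 302, 261 and 249.7 CPM in the colchicine libraries (log2 fold change 0.78, SE 0.11, adjusted p = 0.00112), and its relative Krt7 measured 190.1, 167, 172 and 174 CPM in the CKD libraries and 274, 288, 226 and 221 CPM in the colchicine libraries (log2 fold change 0.52, SE 0.09, adjusted p = 0.0037). Sox4, a transcription factor of dedifferentiated epithelium, measured 136, 139, 129.6 and 153 CPM in the CKD libraries and 209.7, 201, 201 and 201 CPM in the colchicine libraries (log2 fold change 0.54, SE 0.10, adjusted p = 0.00471). All 3 were above CKD in every library. Havcr1, which encodes the injury marker KIM-1, measured 203, 162, 207 and 182 CPM in the CKD libraries and 244, 53.5, 67.8 and 139 CPM in the colchicine libraries (log2 fold change -0.58, SE 0.39, adjusted p = 0.327): replicate 1 was above all CKD libraries and the other 3 were below all of them. Without replicate 1 its log2 fold change was -1.13 (adjusted p = 0.0166). Also called were Itgb6 and Krt8 (higher) and Spp1 and Vcam1 (lower). For the injured and failed-repair tubule list, leaving out 1 library at a time gave 3 to 6 higher and 0 to 4 lower, moving the higher count by over 1.5 times without CKD replicates 1, 3 or 4, and the lower count without CKD replicates 3 or 4 or colchicine replicates 1 or 3. The injured and failed-repair tubule list had 8 higher and 1 lower with GC adjusted and 9 higher and 1 lower in replicate 1 alone. Lcn2, the injury marker NGAL, measured 775, 699, 765 and 713 CPM in the CKD libraries and 1189, 922, 840.2 and 832 CPM in the colchicine libraries, above CKD in all 4 libraries but not called (log2 fold change 0.36, SE 0.16, adjusted p = 0.143). Control means were 1.57 ± 0.289 CPM (SD, n = 4) for Havcr1 and 5.08 ± 1.92 CPM (SD, n = 4) for Lcn2.

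Genes of mitosis all had estimates above CKD, and 4 of 25 were called, none of them lower. Replicate 1 differed most: alone it gave 23 higher, and without it 3 were higher. Their summed level was 186 to 246 CPM in CKD and 453, 224, 209.7 and 304 CPM in colchicine replicates 1 to 4. Birc5, survivin, of the chromosomal passenger complex, measured 6.51, 7.48, 7.53 and 6.37 CPM in the CKD libraries and 15.3, 9.25, 9.35 and 13.3 CPM in the colchicine libraries (log2 fold change 0.75, SE 0.15, adjusted p = 0.00709). Also called were Cenpf, Plk1 and Ube2c (higher). Mki67, a marker of cycling cells, measured 37.5, 41.6, 40.9 and 31.4 CPM in the CKD libraries and 73.4, 36.2, 37.2 and 52.2 CPM in the colchicine libraries, with replicates 2 and 3 inside the CKD range (log2 fold change 0.39, SE 0.20, adjusted p = 0.184). DNA replication genes gave 0 calls of 23 (edgeR; 3 had an unadjusted p below 0.05, and DESeq2 called 0). For the DNA replication list, leaving out 1 library at a time gave 0 higher and 0 to 4 lower, moving the lower count by over 1.5 times without colchicine replicates 1 or 4. The DNA replication list had 3 higher and 0 lower in replicate 1 alone. For the mitosis list, leaving out 1 library at a time gave 1 to 5 higher and 0 lower, moving the higher count by over 1.5 times without CKD replicates 1, 3 or 4 or colchicine replicate 4. Replication-dependent histone transcripts, which mostly lack poly(A) tails and are near-identical copies, were higher in 6 of the 12 that could be tested of 55, and in 4 with GC adjusted; H1f2, a linker histone, measured 6.30, 7.41, 7.83 and 5.93 CPM in the CKD libraries and 11.2, 11.7, 10.3 and 13.7 CPM in the colchicine libraries (log2 fold change 0.77, SE 0.14, adjusted p = 0.00441). Targets of p53 were higher in 4 and lower in 2 of 17; with GC adjusted 1 was higher. Bax, a mediator of cell death, went from a log2 fold change of 0.35 (SE 0.09, adjusted p = 0.0212) to 0.07 (adjusted p = 0.629) on that adjustment. Also called were Bbc3, Cdkn1a and Phlda3 (higher) and Sesn1 and Sesn2 (lower). For the p53 and senescence list, leaving out 1 library at a time gave 0 to 5 higher and 0 to 6 lower, moving the higher count by over 1.5 times without any one CKD replicate or colchicine replicate 2, and the lower count without any one CKD replicate or any one colchicine replicate. The p53 and senescence list had 4 higher and 0 lower in replicate 1 alone. Bax was not called without CKD replicates 1 or 3 or colchicine replicate 2 (adjusted p up to 0.0772).

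Tubulin genes, the targets of colchicine, gave 0 calls among 13 tested (edgeR; 2 had an unadjusted p below 0.05, and DESeq2 called 0). Their median log2 fold change was 0.09, and between CKD and control 9 were higher, where 34.1% of all genes were higher. Tubb5, the most widely used beta-tubulin, measured 325, 322, 316 and 305 CPM in the CKD libraries and 347, 355, 382 and 324 CPM in the colchicine libraries (log2 fold change 0.15, SE 0.07, adjusted p = 0.155), and Tuba1b, a major alpha-tubulin, 255, 246, 255 and 253 CPM in the CKD libraries and 240.0, 293, 274 and 243 CPM in the colchicine libraries (log2 fold change 0.06, SE 0.08, adjusted p = 0.643). The groups overlapped for both. Tubb6 was above CKD in every library, from 40.1 to 57.6 CPM against 32.8 to 38.0 CPM, without passing the test (log2 fold change 0.39, SE 0.13, adjusted p = 0.0579). With GC adjusted 2 tubulin genes were lower, and without replicate 1 2 were higher. For the tubulin list, leaving out 1 library at a time gave 0 to 2 higher and 0 lower, moving the higher count by over 1.5 times without colchicine replicates 1 or 3 or control replicate 2. The tubulin list had 1 higher and 1 lower in replicate 1 alone.

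Among 29 genes of microtubule motors and associated proteins, 4 were higher and 1 lower, together a share near the 15.0% of all genes. Tppp3, a tubulin-binding protein found in ciliated cells, showed the largest rise that the naming rule admits, at 2.88, 3.21, 2.41 and 2.95 CPM in the CKD libraries and 11.9, 16.9, 7.43 and 13.2 CPM in the colchicine libraries (log2 fold change 2.11, SE 0.21, adjusted p = 8.45e-05). Controls averaged 3.21 ± 0.488 CPM (SD, n = 4), so CKD alone had left its level near that of control. Tppp, its relative, which bundles microtubules, measured 1.65, 1.496, 1.67 and 2.83 CPM in the CKD libraries and 8.26, 5.20, 2.32 and 5.08 CPM in the colchicine libraries, with replicate 3 inside the CKD range (log2 fold change 1.43, SE 0.31, adjusted p = 0.0102). Map7, which recruits kinesin-1 to microtubules, fell (log2 fold change -0.46, SE 0.09, adjusted p = 0.00723). Also called were Kif3a and Stmn1 (higher). For the microtubule motors and associated protein list, leaving out 1 library at a time gave 2 to 10 higher and 1 to 2 lower, moving the higher count by over 1.5 times without CKD replicate 3 or colchicine replicate 1, and the lower count without colchicine replicate 1. The microtubule motors and associated protein list had 3 higher and 0 lower in replicate 1 alone. Motile cilium genes were higher in 6 of 15, with all 15 estimates above 0, 8 higher with GC adjusted and 1 higher in replicate 1 alone. Foxj1, the factor that switches on motile cilia, measured 12.6, 10.6, 12.4 and 10.4 CPM in the CKD libraries and 17.7, 26.4, 15.7 and 17.6 CPM in the colchicine libraries (log2 fold change 0.75, SE 0.17, adjusted p = 0.0121), and controls averaged 0.357 ± 0.217 CPM (SD, n = 4). Cfap126, a ciliary structural protein, showed a log2 fold change of 0.64 (SE 0.13, adjusted p = 0.00855). Their list summed to 31.9 to 36.8 CPM in CKD and 55.4, 73.6, 50.4 and 60.5 CPM in colchicine replicates 1 to 4, so all 4 exceeded CKD. For the motile cilium list, leaving out 1 library at a time gave 3 to 6 higher and 0 lower, moving the higher count by over 1.5 times without CKD replicates 1, 2 or 3 or colchicine replicates 2 or 4.

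Genes listed for colchicine transport and clearance were lower in 4 of 8 and higher in none (median -0.57). The list includes general exporters of the proximal tubule, and its enzymes Cyp3a11 and Cyp3a25 had too few counts to test. Movement of colchicine itself was not measured. P-glycoprotein, which pumps colchicine out, is encoded in mice by Abcb1a and Abcb1b. Abcb1b measured 9.67, 10.4, 9.91 and 6.63 CPM in the CKD libraries and 6.25, 4.64, 4.71 and 5.08 CPM in the colchicine libraries (log2 fold change -0.83, SE 0.19, adjusted p = 0.0115), and Abcb1a, 6.93, 5.31, 5.12 and 5.58 CPM in the CKD libraries and 5.30, 4.52, 4.87 and 4.49 CPM in the colchicine libraries, was not called (log2 fold change -0.26, SE 0.14, adjusted p = 0.204). Slc47a1, a proximal tubule exporter of organic cations, measured 85.4, 87.5, 99.8 and 89.1 CPM in the CKD libraries and 45.1, 37.8, 56.5 and 73.3 CPM in the colchicine libraries (log2 fold change -0.77, SE 0.16, adjusted p = 0.00762), and Abcc2, an exporter of conjugates, 42.9, 38.4, 51.1 and 40.2 CPM in the CKD libraries and 20.2, 13.3, 20.4 and 34.2 CPM in the colchicine libraries (log2 fold change -0.98, SE 0.22, adjusted p = 0.0131). The groups did not overlap for Abcb1b, Slc47a1 or Abcc2. For Abcb1b the log2 fold change was -0.56 in replicate 1 alone. In a fit with a slope on the diet label, read at 2%, it was -0.69 and not called (adjusted p = 0.138). Also called was Slc22a2 (lower). Purine and urate genes were higher in 1 and lower in 3 of 26, together a share near the 15.0% of all genes. Aprt, which salvages adenine and so competes with its oxidation, measured 28.6, 28.3, 29.9 and 27.7 CPM in the CKD libraries and 32.3, 44.0, 37.6 and 42.3 CPM in the colchicine libraries (log2 fold change 0.45, SE 0.09, adjusted p = 0.00806). The log2 fold change of Aprt was 0.17 in replicate 1 alone, the library with the diet label of CKD. Read at 2% in the fit with a diet slope it was 0.31 and not called (adjusted p = 0.153). With GC adjusted it was 0.27 (adjusted p = 0.0227). Xdh, which oxidises adenine, measured 62.3, 60.3, 61.8 and 55.9 CPM in the CKD libraries and 64.5, 64.2, 58.8 and 50.3 CPM in the colchicine libraries (log2 fold change -0.01, SE 0.09, adjusted p = 0.926), with no separation between groups. The 3 lower genes were Slc17a3, a urate transporter (log2 fold change -1.17, SE 0.25, adjusted p = 0.0122), Adk, adenosine kinase (log2 fold change -0.55, SE 0.11, adjusted p = 0.00638), and Abcg2, a urate exporter named to complete the count (log2 fold change -0.81, SE 0.21, adjusted p = 0.0254). For the purine and urate handling list, leaving out 1 library at a time gave 1 to 2 higher and 2 to 8 lower, moving the higher count by over 1.5 times without colchicine replicate 1, and the lower count without colchicine replicates 1 or 4. The purine and urate handling list had 2 higher and 4 lower with GC adjusted. Abcg2 was not called without CKD replicates 1, 3 or 4 or colchicine replicate 3 (adjusted p up to 0.0811).

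The clock-controlled transcription factors Dbp, Hlf and Tef fell. Circadian genes were lower in 6 and higher in 2 of 18. Their estimates ran from -1.33 to 0.98, with 15 below 0 and 3 above. The 2 higher members and the other lower members are not named. Dbp, Hlf and Tef are the PAR-bZIP factors, outputs of the clock. Hlf measured 29.3, 30.7, 36.8 and 35.9 CPM in the CKD libraries and 15.2, 9.56, 13.5 and 14.7 CPM in the colchicine libraries (log2 fold change -1.33, SE 0.14, adjusted p = 0.000171), Dbp 70.7, 64.5, 56.3 and 70.5 CPM in the CKD libraries and 31.7, 37.3, 38.1 and 26.9 CPM in the colchicine libraries (log2 fold change -0.96, SE 0.11, adjusted p = 0.000251) and Tef 69.3, 69.8, 64.6 and 74.1 CPM in the CKD libraries and 50.04, 39.5, 45.0 and 34.2 CPM in the colchicine libraries (log2 fold change -0.72, SE 0.11, adjusted p = 0.00191). All 3 were below CKD in every library. For the circadian clock list, leaving out 1 library at a time gave 1 to 2 higher and 5 to 10 lower, moving the higher count by over 1.5 times without CKD replicates 1, 2 or 4 or colchicine replicates 2, 3 or 4, and the lower count without colchicine replicate 1. The circadian clock list had 1 higher and 4 lower in replicate 1 alone. No source used here gives the hour at which kidneys were taken, and its part in these values was not tested.

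Of the renin, vitamin D and phosphate genes, 7 of 19 were lower and none higher (median -0.52). Agt, angiotensinogen, measured 58.5, 67.5, 62.5 and 69.0 CPM in the CKD libraries and 41.7, 24.0, 28.9 and 30.4 CPM in the colchicine libraries (log2 fold change -1.04, SE 0.13, adjusted p = 0.000356), with replicate 1 nearest to CKD. Ace, the enzyme that makes angiotensin II, measured 40.7, 43.1, 48.0 and 43.5 CPM in the CKD libraries and 31.3, 30.7, 27.7 and 29.6 CPM in the colchicine libraries (log2 fold change -0.55, SE 0.08, adjusted p = 0.00144). Agtr1a, its receptor, showed a log2 fold change of -0.57 (SE 0.11, adjusted p = 0.00616). Kl, klotho, the co-receptor for the phosphate hormone FGF23, measured 48.5, 48.1, 62.1 and 49.4 CPM in the CKD libraries and 44.7, 17.0, 23.9 and 49.1 CPM in the colchicine libraries (log2 fold change -0.63, SE 0.27, adjusted p = 0.134): replicates 2 and 3 were below all CKD libraries and replicates 1 and 4 lay near or within them. For the renin, vitamin D and phosphate list, leaving out 1 library at a time gave 0 to 2 higher and 3 to 9 lower, moving the higher count by over 1.5 times without colchicine replicate 1 or control replicate 3, and the lower count without CKD replicate 3. Other genes that rose by the naming rule were Ntm, a cell adhesion molecule (log2 fold change 1.39, SE 0.19, adjusted p = 0.000713), the small noncoding RNAs Bc1 (log2 fold change 1.38, SE 0.19, adjusted p = 0.00122) and Rn7sk (log2 fold change 1.51, SE 0.31, adjusted p = 0.00876), and Ly6e, a surface protein that interferon can induce (log2 fold change 0.32 (SE 0.09, adjusted p = 0.0306), or 0.22 (adjusted p = 0.0887) with GC adjusted). Ly6e was not called without any one CKD replicate or colchicine replicates 2, 3 or 4 (adjusted p up to 0.106).

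**Figure D4:**
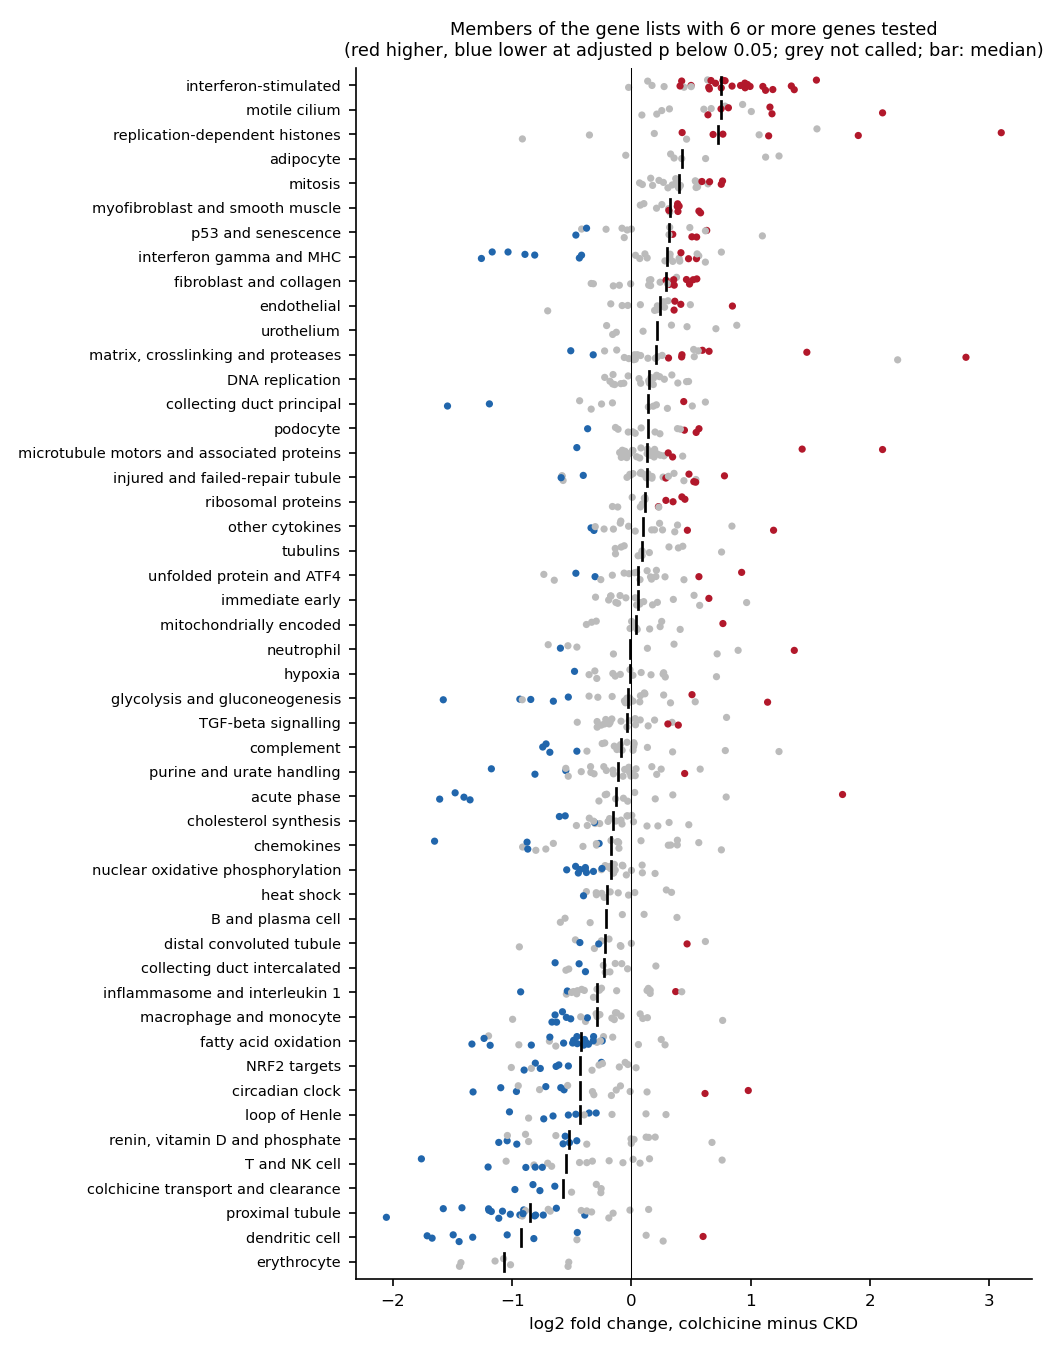
Log2 fold change of colchicine against CKD (horizontal axis) for every tested member of the gene lists with 6 or more tested genes, ordered by median (black bar), with called genes in red (higher) or blue (lower). The interferon list has 22 red points and no blue one, and the dendritic cell, proximal tubule and fatty acid oxidation lists have 8, 17 and 17 blue points.

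The diet labels could also be used within the colchicine group. A slope on the labelled adenine percentage, with 1 library at each level, was called for 226 genes (1.27%), 118 rising and 108 falling with the label, and 46 of them were also called between colchicine and CKD. Read at the 2% label, the slope fit gave 392 genes higher and 616 lower with colchicine, of which 695 were among the 2682 called genes. Without colchicine replicates 1 to 4 in turn the slope was called for 291, 1081, 141 and 1704 genes. Gc was among the named genes with a slope (log2 slope 0.28 per percentage point, adjusted p = 0.0448), and so was Slc34a1 (0.29, adjusted p = 0.0388). By list, the slope was called for 8 of 28 proximal tubule genes and 7 of 13 mitochondrially encoded transcripts. It was also called for 4 of 19 renin, vitamin D and phosphate genes, against 1.27% of all genes. The fatty acid oxidation and dendritic cell lists had 0 of 28 and 0 of 12. Beyond the GC trend, replicates 2 to 4 differed from replicate 1 in heat shock genes: 2 of 12 were higher in replicate 1 alone, and without it 7 were lower, while all 4 libraries together gave 1 lower and none higher. For the heat shock list, leaving out 1 library at a time gave 0 to 1 higher and 0 to 7 lower, moving the higher count by over 1.5 times without colchicine replicate 4, and the lower count without CKD replicates 1, 3 or 4 or colchicine replicates 1, 2 or 3. The heat shock list had 0 higher and 0 lower with GC adjusted.

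**Figure D5:**
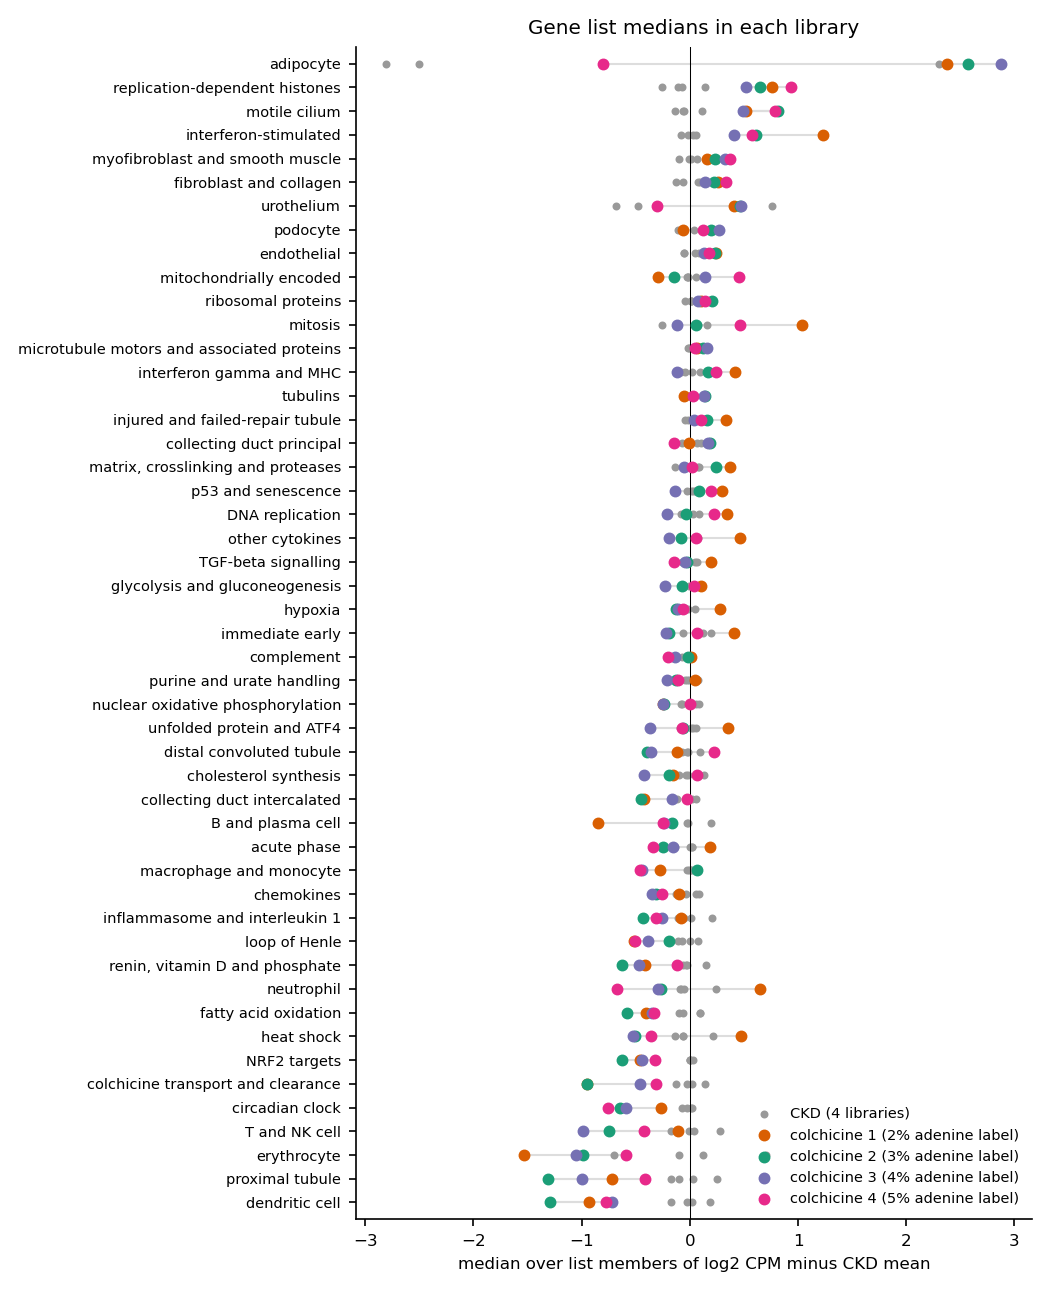
Median over list members of log2 CPM minus the CKD mean (horizontal axis) for each gene list, in the 4 colchicine libraries (coloured) and the 4 CKD libraries (grey). The dendritic cell, proximal tubule and fatty acid oxidation medians are below 0 in all 4 colchicine libraries and the interferon medians above 0 in all 4, while the mitosis and heat shock medians of replicate 1 (1.04 and 0.47) lie above those of replicates 2 to 4 (0.05, -0.12 and 0.46 for mitosis, -0.50, -0.52 and -0.36 for heat shock).

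Adipocyte markers, of fat around the kidney, gave 0 calls of 7 (edgeR; 0 had an unadjusted p below 0.05, and DESeq2 called 0), and their summed level was 4.52 to 98.3 CPM in CKD and 81.2, 95.1, 126 and 9.50 CPM in colchicine replicates 1 to 4. Cfd, adipsin, measured 36.5, 0.356, 1.19 and 38.3 CPM in the CKD libraries and 39.3, 58.7, 77.1 and 4.70 CPM in the colchicine libraries, high in 2 of the CKD and 3 of the colchicine libraries (log2 fold change 1.24, SE 1.13, adjusted p = 0.469). Erythrocyte genes were all estimated lower with no call among 7 (median -1.07; 5 had an unadjusted p below 0.05, and DESeq2 called 3). The median of their log2 differences from the CKD mean was -1.53, -0.98, -1.05 and -0.59 in colchicine replicates 1 to 4 and -0.70 to 0.71 in the CKD libraries. For the pair of skeletal muscle genes it was 0.63, 1.07, 0.90 and 0.58, and -1.09 to 0.94 in CKD. The part of blood and muscle in the other values was not tested. For the erythrocyte list, leaving out 1 library at a time gave 0 higher and 0 to 1 lower, moving the lower count by over 1.5 times without colchicine replicate 1. The B and plasma cell, urothelium, adrenal cortex and skeletal muscle lists gave no call among 6, 8, 1 and 2 tested genes (edgeR), of which 1, 1, 0 and 0 had an unadjusted p below 0.05 and DESeq2 called 1, 0, 0 and 0.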

How the data were processed

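RNA was extracted with RNAiso Plus and libraries were made with the CORALL RNA-seq V2 kit, per the labels' protocols. The authors deposited 1 table per library of estimated counts per gene, made with fastp, STAR and Salmon on GRCm39, per the submitters' processing notes. No source used here gives their versions or the annotation. The values are whole numbers kept to 6 significant digits. Salmon divides reads between similar transcripts, so counts of near-identical genes are uncertain.

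The 12 libraries (22200909 to 38253100 counts) were grouped by their labels. Genes passing filterByExpr with a minimum count of 10 (17841 of 40213) were fitted with edgeR 4.0.16 in R 4.3.3 (TMM scaling, robust quasi-likelihood F test, 3 group means), and the colchicine minus CKD contrast was called at a Benjamini-Hochberg adjusted p below 0.05, two-sided, over all tested genes. CPM (counts per 1000000) are TMM-scaled; log2 CPM of single libraries used a prior count of 2. Standard errors were derived from the F statistic. The fit was tested on simulated counts with 200 changed genes. It recovered 44.5% of 1.5-fold, 74.5% of 2-fold and 94% of 4-fold changes, with 6, 5 and 4 false calls. A gene that was not called may therefore still have changed. Transcript GC content came from GENCODE vM21 (GRCm38), which names 91.5% of tested genes; the GC adjustment removed a lowess curve per library (span 0.3).

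Alternatives were DESeq2 1.42.0, limma-voom 3.58.1, 4 other scalings, 2 other filters, a 1.5-fold threshold, the 8 libraries alone, a replicate block, the labelled diet and each library left out.

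Named genes are the 10 largest changes in each direction without overlap at a mean of 5 CPM or more, the 10 smallest p-values, the 6 largest changes in CPM in each direction, the leading 3 members of each list and a fixed panel, without predicted genes and pseudogenes; the text gives examples, and some genes are not reported here. Genes listed only as also called, Abcg2, and members of the interferon gamma and MHC list beyond its leading 3 were named after their values were seen. The members and gene lists were chosen with earlier results of these data known, so no list is independent evidence.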

Additional observations from a re-analysis of the deposited data

Results flagged for a closer look

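For 146 genes with values in the text and 3 measures of each library (its total count, its mitochondrial share and its number of genes with a count), a library far from the other 3 of its group was looked for with Dixon's test at its 95% critical value, which sets the gap to the nearest other library against the group's range. Over these and the 2 groups it marked 18 of 298 sets of 4 values, where chance marks about 1 in 20. The CKD group held 11 of them, colchicine replicate 1 held 4 and colchicine replicates 2 to 4 held 3.

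Colchicine replicate 1 was high for Ifit1 at 75.7 CPM against 34.5 to 39.0 CPM, Xaf1 at 36.3 CPM against 26.6 to 27.0 CPM, Nlrp3 at 6.74 CPM against 4.07 to 4.52 CPM and Sox4 at 209.7 CPM against 201 CPM in the others. Colchicine replicate 2 was high for Umod at 1032 CPM against 606.5 to 674 CPM. Colchicine replicate 4 was high for Cxcl16 at 148 CPM against 132 to 135 CPM and Aqp3 at 5.63 CPM against 3.67 to 3.91 CPM. CKD replicate 1 was high for Vim at 542 CPM against 504 to 509 CPM and Tmsb10 at 651 CPM against 608 to 613 CPM. CKD replicate 1 was low for Cd74 at 1014 CPM against 1206 to 1228 CPM and Ces1f at 19.7 CPM against 26.4 to 26.8 CPM. CKD replicate 2 was high for Ccl3 at 18.5 CPM against 13.7 to 14.3 CPM and Saa1 at 1.28 CPM against 0.863 to 0.914 CPM. CKD replicate 3 was high for Kl at 62.1 CPM against 48.1 to 49.4 CPM, ND6 at 47.7 CPM against 44.7 to 45.0 CPM and Spp1 at 16980 CPM against 14300 to 14660 CPM. CKD replicate 4 was high for Tppp at 2.83 CPM against 1.496 to 1.67 CPM. CKD replicate 4 was low for Slc16a3 at 4.53 CPM against 5.71 to 5.91 CPM.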

How the results depend on the processing

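Of 128 called genes with values in the text, 27 kept their direction and their call under all 29 alternatives, and 104 in all 12 fits that left out 1 library. The number of genes called depended on the setting, and where no value shows the cause it was not tested. Replicate 1 alone, which uses fewer samples, gave 532 higher and 660 lower, and the slope fit read at 2% gave 392 and 616. With GC adjusted and replicate 1 left out the counts were 2149 and 2727. Tested against 1.5-fold they were 12 and 28, as a stricter hypothesis gives. DESeq2 called 1502 higher and 2303 lower. Leaving out 1 library at a time gave 419 to 2882 higher and 573 to 3519 lower. The slope on the diet label was called for 226 genes, for 703 by DESeq2 and for 141 to 1704 with 1 colchicine library left out. The other scalings, filters and tools stayed within 1.5 times, from 854 higher without a low-count filter to 1764 with upper-quartile scaling, and from 1066 lower with library totals to 1938 with limma-voom. The GC adjustments and the fit on genes with a GC value were chosen after seeing the data.

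Same-numbered CKD and colchicine libraries had deviations from their group means that correlated at 0.19, 0.05, -0.12 and -0.07 for numbers 1 to 4. Not every library correlated best with its own number. The highest correlation was 0.42, between CKD replicate 4 and colchicine replicate 3. Low correlations in so few pairs cannot exclude that the design paired the libraries, and no pairing was assumed in the main fit. A fit with the replicate number as a block (replicate block) called 694 higher and 1062 lower.

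Some estimates changed sign, among them those of Havcr1, ND6 and Bax, which were not near 0 in the fit of all libraries (-0.58, 0.77 and 0.35). Xdh was 0.0945 in replicate 1 alone, 0.0077 with the count minimum at 50, 0.0135 with library totals, 0.1582 in the slope fit at 2%, 0.046 with upper-quartile scaling, and -0.0578 to 0.0482 with 1 library left out. Tuba1b was -0.0375 with GC adjusted, -0.0525 with GC and length adjusted, -0.0232 with GC adjusted and replicate 1 left out, -0.0808 in replicate 1 alone, and -0.001 to 0.0952 with 1 library left out. Tgfb1 was -0.2149, -0.1996 and -0.3244 in the same 3 GC settings, the last called lower (adjusted p = 0.00178), and -0.0047 to 0.0818 with 1 library left out, and Bax was -0.0083 with GC and length adjusted and -0.0152 with GC adjusted and replicate 1 left out. In replicate 1 alone Nlrp3 was 0.3227, Havcr1 0.3668 and ND6 -0.1077, and Nlrp3 was 0.1941 in the slope fit at 2%. Ccl2 was -0.0035 with limma-voom and -0.1347 (without colchicine replicate 1) to 0.2679 (without colchicine replicate 3) with 1 library left out. Tnf was -0.2104 (without CKD replicate 1) to 0.0157 (without CKD replicate 2).

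At 22200909 to 38253100 counts a library, 17841 of 40213 genes had enough counts to test, and changes of genes below that filter were not detectable at this depth.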

Other observations

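Some lists of stress, growth and signalling genes gave few calls. Of 20 immediate early genes, 1 was higher and none lower: Jund, a subunit of the AP-1 transcription factor, measured 105, 125, 108 and 117 CPM in the CKD libraries and 159, 195, 179 and 181 CPM in the colchicine libraries (log2 fold change 0.65, SE 0.10, adjusted p = 0.00195), with the groups apart. With GC adjusted its log2 fold change was 0.29 (adjusted p = 0.0465), and in replicate 1 alone it was not called (log2 fold change 0.48, adjusted p = 0.0683). The immediate early list had 3 higher and 0 lower in replicate 1 alone. In the unfolded protein and ATF4 list 2 were higher and 2 lower of 20, shares near the 6.79% and 8.24% of all genes. Phgdh, the first enzyme of serine synthesis, was the most clearly higher member (log2 fold change 0.57, SE 0.13, adjusted p = 0.0109). Also called were Trib3 (higher) and Psat1 and Sesn2 (lower). For the unfolded protein and ATF4 list, leaving out 1 library at a time gave 1 to 3 higher and 0 to 8 lower, moving the higher count by over 1.5 times without CKD replicates 1, 2 or 3, colchicine replicates 2 or 3 or control replicate 3, and the lower count without any one CKD replicate, any one colchicine replicate or control replicate 3. The unfolded protein and ATF4 list had 1 higher and 1 lower with GC adjusted and 5 higher and 0 lower in replicate 1 alone. Of 15 hypoxia genes only Ndrg1 was called, lower (log2 fold change -0.48, SE 0.15, adjusted p = 0.0444). For the hypoxia list, leaving out 1 library at a time gave 0 to 1 higher and 0 to 5 lower, moving the higher count by over 1.5 times without control replicate 1, and the lower count without any one CKD replicate, colchicine replicates 1, 2 or 3 or any one control replicate. The hypoxia list had 1 higher and 1 lower with GC adjusted and 4 higher and 0 lower in replicate 1 alone. Among 18 other cytokine genes, 2 were higher and 2 lower. Clcf1, a ligand of the interleukin 6 family, rose (log2 fold change 0.47, SE 0.11, adjusted p = 0.0113), and Tnfrsf1b, a receptor for tumour necrosis factor, fell (log2 fold change -0.31, SE 0.09, adjusted p = 0.0324). Also called were Csf2 (higher) and Il34 (lower). For the other cytokine list, leaving out 1 library at a time gave 1 to 2 higher and 0 to 3 lower, moving both counts by over 1.5 times without any one CKD replicate or colchicine replicates 2 or 4. The other cytokine list had 5 higher and 2 lower in replicate 1 alone. Ndrg1 was not called without any one CKD replicate, colchicine replicates 2 or 3 or any one control replicate (adjusted p up to 0.138). Tnfrsf1b was not called without any one CKD replicate or colchicine replicates 2 or 4 (adjusted p up to 0.0947).

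Ribosomal protein genes were higher in 5 of 14 and lower in none, and in 5 with GC adjusted. Rpsa, of the small subunit, measured 507, 536, 504 and 522 CPM in the CKD libraries and 583, 799.7, 726 and 717 CPM in the colchicine libraries (log2 fold change 0.45, SE 0.10, adjusted p = 0.00892). Rpl13, of the large subunit, measured 262, 283, 278 and 283 CPM in the CKD libraries and 303, 414, 377 and 389 CPM in the colchicine libraries (log2 fold change 0.42, SE 0.09, adjusted p = 0.00996). With GC adjusted their log2 fold changes were 0.46 (adjusted p = 0.00667) and 0.28 (adjusted p = 0.0215). Also called were Rpl19, Rplp0 and Rps18 (higher). Many ribosomal protein genes have processed pseudogenes, between which reads may be split. For the ribosomal protein list, leaving out 1 library at a time gave 2 to 6 higher and 0 lower, moving the higher count by over 1.5 times without CKD replicates 1 or 3 or colchicine replicates 2 or 4. The ribosomal protein list had 0 higher and 0 lower in replicate 1 alone.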
